A study of Mus musculus with 12 samples.

Results

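The genes described here are 37 markers of cardiac macrophages and monocytes, followed through 12 left ventricles of mice. They were taken by symbol from a list of 5 genes of resident macrophages, 4 genes of recruited monocytes and 28 genes shared across macrophages, and all 37 were found among the 78334 genes of the count table. Of them 36 had enough counts to be tested, as 36 of 16981 genes, and Aif1 did not. The UNX/DOCA ITF2357 mice had UNX/DOCA surgery, which combines removal of a kidney with the mineralocorticoid deoxycorticosterone acetate and gives a model of diastolic dysfunction, and from 4 weeks after surgery their chow held ITF2357 for 4 weeks; this drug, givinostat, blocks histone deacetylases. UNX/DOCA vehicle mice had that surgery and ate normal chow over those 4 weeks. Sham vehicle mice had sham surgery and normal chow. Each group had 4 animals with 1 library each, made from poly(A) RNA of about 10 mg of ventricle. The labels state no strain, sex or age, and no Sham group on ITF2357 chow was analysed here.

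The heart holds macrophages of different origin. Resident macrophages settle before birth, renew themselves locally and clear dying cells and debris, and they carry uptake receptors such as TIMD4, LYVE1 and FOLR2. Blood monocytes enter an injured or overloaded heart, guided by the chemokine receptor CCR2, and mature into macrophages that can take on the shared markers of the lineage. Several of these genes are also used by other cells: Lyve1 by lymphatic endothelium, Lyz2, Itgam, Cybb and Chil3 by neutrophils or their precursors, Fcer1g by mast cells and Ptprc by all leukocytes. In bulk tissue, fewer cells of a type and less RNA per cell cannot be told apart.

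Libraries held 23.4 to 34.9 M counts, and UNX/DOCA vehicle replicate 3 was the shallowest of the 12. Expression is given as CPM, counts scaled by TMM to a common library size of 1 M reads, and at the mean depth of 28.3 M counts 1 CPM is about 28.3 reads. Cardiomyocyte markers summed to 45164 to 49650 CPM in UNX/DOCA ITF2357, 43060 to 50639 under UNX/DOCA vehicle and 45783 to 56078 under Sham vehicle, while 4 atrial markers summed to 1.06 to 4.03 CPM in UNX/DOCA ITF2357, 1.52 to 2.86 under UNX/DOCA vehicle and 1.95 to 3.28 under Sham vehicle. Within groups, chi-square per degree of freedom was 10.9 to 57.3, so the spread exceeded counting error. Replicates 3 and 4 of UNX/DOCA vehicle stood apart from the other libraries in most of the 37 genes. Values without these 2 libraries are given for many, but not all, of the genes and lists named.

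Levels per length of exon, in CPM per kb, show how unequal these genes are as a source of signal. Length is the union of all annotated exons of a gene, so the order also depends on the annotation. Lyz2, which encodes the bacteria-digesting lysozyme M, stood first with 28.3 ± 4.13 CPM per kb in UNX/DOCA ITF2357, 52.9 ± 24.4 under UNX/DOCA vehicle and 40.0 ± 11.9 under Sham vehicle (SD, n = 4 each). In Sham vehicle it was followed by the protease gene Ctss with 10.3 ± 3.25 CPM per kb, the adaptor Tyrobp with 9.62 ± 1.27 and Lyve1 with 8.72 ± 2.1, and these 3 did not differ beyond their spread. Cd14 (7.91 ± 1.68 CPM per kb) and Csf1r (7.86 ± 0.995) came next. Resident genes covered a wide range in Sham vehicle, from Timd4 at 0.658 ± 0.259 and Folr2 at 0.848 ± 0.125 up to Cd163 at 5.01 ± 1.41, Mrc1 at 5.76 ± 0.558 and Lyve1. The 4 recruited genes were all low there, with Chil3 at 0.463 ± 0.672 CPM per kb, Ccr2 at 0.332 ± 0.136, Ly6c2 at 0.265 ± 0.146 and Plac8 at 0.168 ± 0.0705. Gpnmb and Aif1 were the lowest of all per kb with 0.122 ± 0.0485 and 0.081 ± 0.046 CPM per kb in Sham vehicle. Without division by length Gpnmb (0.793 CPM) was above Plac8 (0.267 CPM) there. Aif1, the gene of the microglia and macrophage marker IBA1, had 0.0607 to 0.372 CPM in UNX/DOCA ITF2357, 0.27 to 0.374 under UNX/DOCA vehicle and 0.0279 to 0.190 under Sham vehicle, so no comparison was made with it.

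PU.1, encoded by the member Spi1, is the transcription factor that many myeloid genes depend on, and it binds purine-rich sites around GAGGAAGT. Promoter windows from RefSeq (GRCm38.p6, 250 bases before to 50 after a transcript start) were found for 28 of the 37 genes, as 35 windows. The word GAGGAAGT, read on either strand, lay in 5 of these 35 windows (14.3%) against 3.20% of all 32851 windows, and these belonged to Cd53, Ctss, Ly6c2 and Spp1. Ly6c2 has overlapping windows that hold the same sites and were each counted, so by gene the word lay in 4 of 28. Those promoters are shown because Cd53 and Ctss are broad myeloid genes while Ly6c2 marks recruited monocytes, and Spp1 lipid-associated macrophages. Capitals mark the word as GAGGAAGT, or as ACTTCCTC where it lies on the opposite strand. Positions are counted from the transcript start as 1, with no 0.
Cd53, chr3:106790100-106790399, minus strand, first base of the word at 7: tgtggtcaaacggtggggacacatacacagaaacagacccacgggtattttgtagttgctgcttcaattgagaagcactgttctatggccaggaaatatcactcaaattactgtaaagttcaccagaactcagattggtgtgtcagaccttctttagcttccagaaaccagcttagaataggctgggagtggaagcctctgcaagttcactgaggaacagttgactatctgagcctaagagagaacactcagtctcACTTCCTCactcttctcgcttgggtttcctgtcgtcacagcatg
Ctss, chr3:95526536-95526835, plus strand, first base at -2: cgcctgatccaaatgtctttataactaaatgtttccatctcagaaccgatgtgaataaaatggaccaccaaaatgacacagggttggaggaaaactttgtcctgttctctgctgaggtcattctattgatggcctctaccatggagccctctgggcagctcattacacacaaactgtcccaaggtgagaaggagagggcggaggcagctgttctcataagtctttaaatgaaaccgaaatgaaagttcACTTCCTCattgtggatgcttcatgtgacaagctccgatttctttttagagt
Ly6c2, chr15:75111888-75112187, minus strand, first bases at -142 and -8: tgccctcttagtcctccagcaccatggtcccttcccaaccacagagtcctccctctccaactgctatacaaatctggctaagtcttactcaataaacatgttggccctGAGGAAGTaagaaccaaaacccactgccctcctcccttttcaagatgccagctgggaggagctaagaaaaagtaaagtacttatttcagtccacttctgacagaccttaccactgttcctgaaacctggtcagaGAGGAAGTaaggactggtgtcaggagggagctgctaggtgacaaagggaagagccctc
Spp1, chr5:104434861-104435160, plus strand, first base at -113: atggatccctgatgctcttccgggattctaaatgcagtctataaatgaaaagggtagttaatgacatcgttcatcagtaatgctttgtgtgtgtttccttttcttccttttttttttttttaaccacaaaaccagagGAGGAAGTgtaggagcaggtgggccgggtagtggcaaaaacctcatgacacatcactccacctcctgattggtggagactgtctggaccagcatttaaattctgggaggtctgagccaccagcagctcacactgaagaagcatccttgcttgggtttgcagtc
The shorter word GAGGAA, which GAGGAAGT contains, lay in windows of 16 of the 28 genes, or 51.4% of windows against 28.3% of all. TGCTGAC, the core of a MAF-type site, lay in windows of Fcgr3 and Timd4 (8.57% of windows against 4.67% of all), and TTGCNNAA, a C/EBP-type word, in windows of Cd68, Fcgr3, Plac8, Spp1 and Trem2 (17.1% against 10.8%). Overlapping windows of Fcgr3 were each counted in these shares. A match is a description of the letters and not evidence of binding.

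UNX/DOCA ITF2357 was compared with UNX/DOCA vehicle to see how these genes differed under the inhibitor in hearts that already had the model (the drug comparison). Of the 36 genes 34 had a negative log2 fold change, where 50.2% of all 16981 tested genes did, and the median was -0.68 for the 36 and 0.00 for all genes. Among the groups of genes by role, the 4 recruited genes had the widest median at -1.58, and the 5 resident genes had -0.42. None of the 36 passed edgeR's quasi-likelihood test with Benjamini-Hochberg adjustment at 0.05, where 0.901% of all genes passed, and the smallest adjusted p among them was 0.141 for Fcer1g. At an unadjusted p under 0.05 there were 15 lower genes, or 41.7% against 9.79% of all genes lower. DESeq2 called 4 of the 36 lower, which were Chil3 (adjusted p = 0.0369), Lyz2 (0.0345), Spi1 (0.0475) and Fcer1g (0.0494), and limma-voom called 0. Over all 16981 genes DESeq2 called 928, of which 528 were lower, and limma-voom called 239, of which 113 were lower. Only Lyz2 had no overlap between the groups, where 4.36% of all genes lay wholly lower. The count of 15 dropped to 5 when UNX/DOCA vehicle replicate 3 was left out. It was 10 when replicate 4 of that group, or replicate 1 of UNX/DOCA ITF2357, was left out. Without UNX/DOCA vehicle replicate 1 or 2 it rose to 20 or 18.

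UNX/DOCA vehicle was compared with Sham vehicle to see how they differed with the model (the disease comparison). The log2 fold change was above 0 in 35 of the 36 genes, where 51.1% of all genes were, and the median was 0.71 against 0.01 over all genes. Recruited genes again had the widest median at 1.57, followed by lipid-associated genes at 1.04, and resident genes had 0.52. No gene of the 36 passed edgeR's adjusted threshold, where 0% of all 16981 genes passed, and the smallest adjusted p among the 36 was 0.130 for Cd53. At an unadjusted p under 0.05 there were 18 higher genes, or 50% against 9.42% of all genes higher. Over all genes 2699 (15.9%) had an unadjusted p under 0.05 in either direction. DESeq2 called Cd53 (adjusted p = 0.0116), Fcer1g (0.0304) and Lgals3 (0.0304) higher, and limma-voom called Cd53 alone (0.0483). Over all 16981 genes DESeq2 called 593, of which 404 were higher, and limma-voom called 559, of which 356 were higher. Cd53 and Fcer1g were also the 2 genes whose groups did not overlap, which is 5.56% of the 36 against 5.03% of all genes. Leaving out 1 library of UNX/DOCA vehicle changed the count of 18 to 27 (replicate 1), 24 (replicate 2), 5 (replicate 3) or 10 (replicate 4). Leaving out replicate 1 or 3 of Sham vehicle gave 8 or 10. In the fit without UNX/DOCA vehicle replicate 1, edgeR called Cd53 (adjusted p = 0.0409) and Fcer1g (0.0435), among 380 genes called in all.

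UNX/DOCA ITF2357 was also compared with Sham vehicle, and there the genes had no common sign. The median log2 fold change of the 36 genes was 0.05, with 21 above 0 and 15 below, and 58.3% above 0 compares with 52.3% of all genes. Single genes ran from -1.64 to 0.99, and the 4 lipid-associated genes had a median of 0.59, so a median near 0 does not mean equal levels. edgeR called 0 of the 36, where 1.75% of all genes were called, with 1 gene (Cx3cr1, lower) at an unadjusted p under 0.05, or 2.78% against 20.1% of all genes in either direction. DESeq2 and limma-voom also called 0 of the 36, where they called 1180 and 1528 of all genes. A fit of only these groups called Maf, among 475 genes called in all. UNX/DOCA vehicle libraries enter both of the earlier comparisons, so the 2 sets of fold changes are not independent of each other and no relation between them is given.

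**Figure D1:**
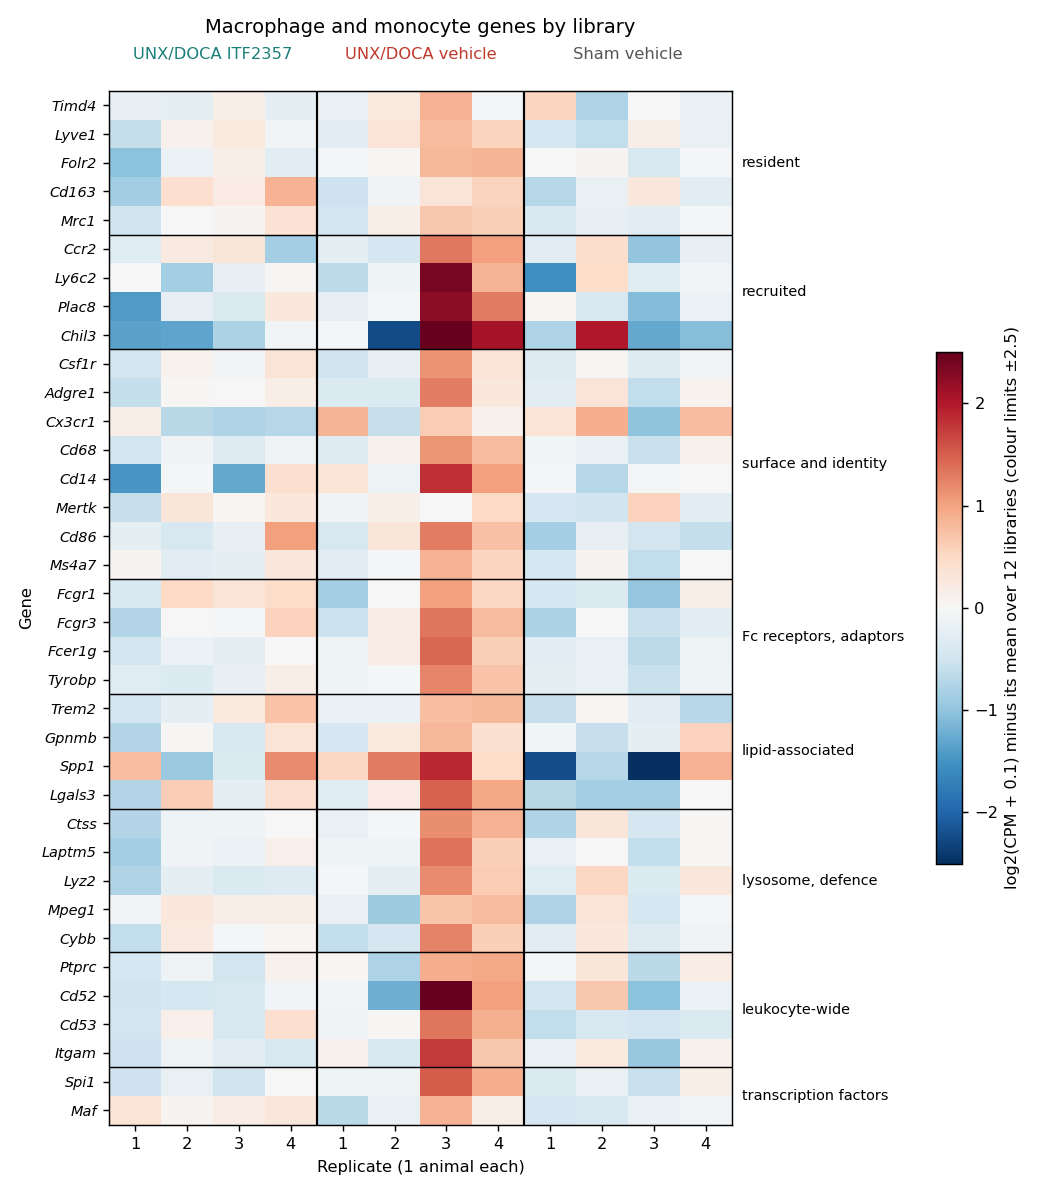
Each row is 1 of the 36 tested genes, grouped by role, and each column 1 library; colour is log2(CPM + 0.1) minus the gene's mean over the 12 libraries, with colours limited at 2.5 either way. The red columns are UNX/DOCA vehicle replicates 3 and 4, which were above the gene's mean in 36 and 35 of the 36 genes.

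Levels were uneven within the UNX/DOCA vehicle group. Replicate 3 was the highest of all 12 libraries in 29 of the 36 genes (80.6%, against 19.1% of all genes), and replicate 4 in 4. Both lay above the other 10 libraries in 26 of the 36, or 72.2% against 7.37% of all genes. The 37 genes summed to 271, 406, 374 and 468 CPM in UNX/DOCA ITF2357, 330.1, 377, 856 and 613 under UNX/DOCA vehicle and 305, 399, 332 and 389.6 under Sham vehicle. Replicates 3 and 4 stood above every Sham vehicle library in 34 and 30 of the 36 genes, replicates 1 and 2 in 3 and 10. Over all genes, 24.6%, 24.1%, 33.7% and 27.4% stood above every Sham vehicle library in UNX/DOCA vehicle replicates 1 to 4. UNX/DOCA ITF2357 replicates 1 to 4 stood above every Sham vehicle library in 1, 8, 6 and 17 genes, and replicate 1 was below all of them in 12. Over all genes these shares were 28%, 28.5%, 28% and 32.1% above in replicates 1 to 4 and 27% below in replicate 1, where 12 of the 36 is 33.3%. The median coefficient of variation over the genes was 24.4% in UNX/DOCA ITF2357, 48.9% under UNX/DOCA vehicle and 27.7% under Sham vehicle, where all genes had 14.9%, 16.9% and 11.6%. With replicates 3 and 4 of UNX/DOCA vehicle left out, the median log2 fold change of the 36 genes was -0.01 for UNX/DOCA ITF2357 against UNX/DOCA vehicle (18 above 0 and 18 below) and 0.06 for UNX/DOCA vehicle against Sham vehicle (20 above and 16 below). In those fits edgeR called 0 of the 36, with 2 higher at an unadjusted p under 0.05 in the first comparison (Maf and Mpeg1) and 0 in the second. Of all 17670 genes tested there, 5.97% and 3.74% were higher at that level. Cd53 then had -0.02 and 0.44 in the drug and disease comparisons, Fcer1g -0.25 and 0.34, Lgals3 0.13 and 0.55, Spi1 -0.17 and 0.10 and Lyz2 -0.27 and -0.23. In the same order Cd68 had -0.15 and 0.06, Cd14 -0.51 and 0.29 and Tyrobp -0.09 and 0.18. Plac8 had -0.28 and 0.30, Ctss -0.11 and 0.03 and Laptm5 -0.09 and 0.06.

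**Figure D2:**
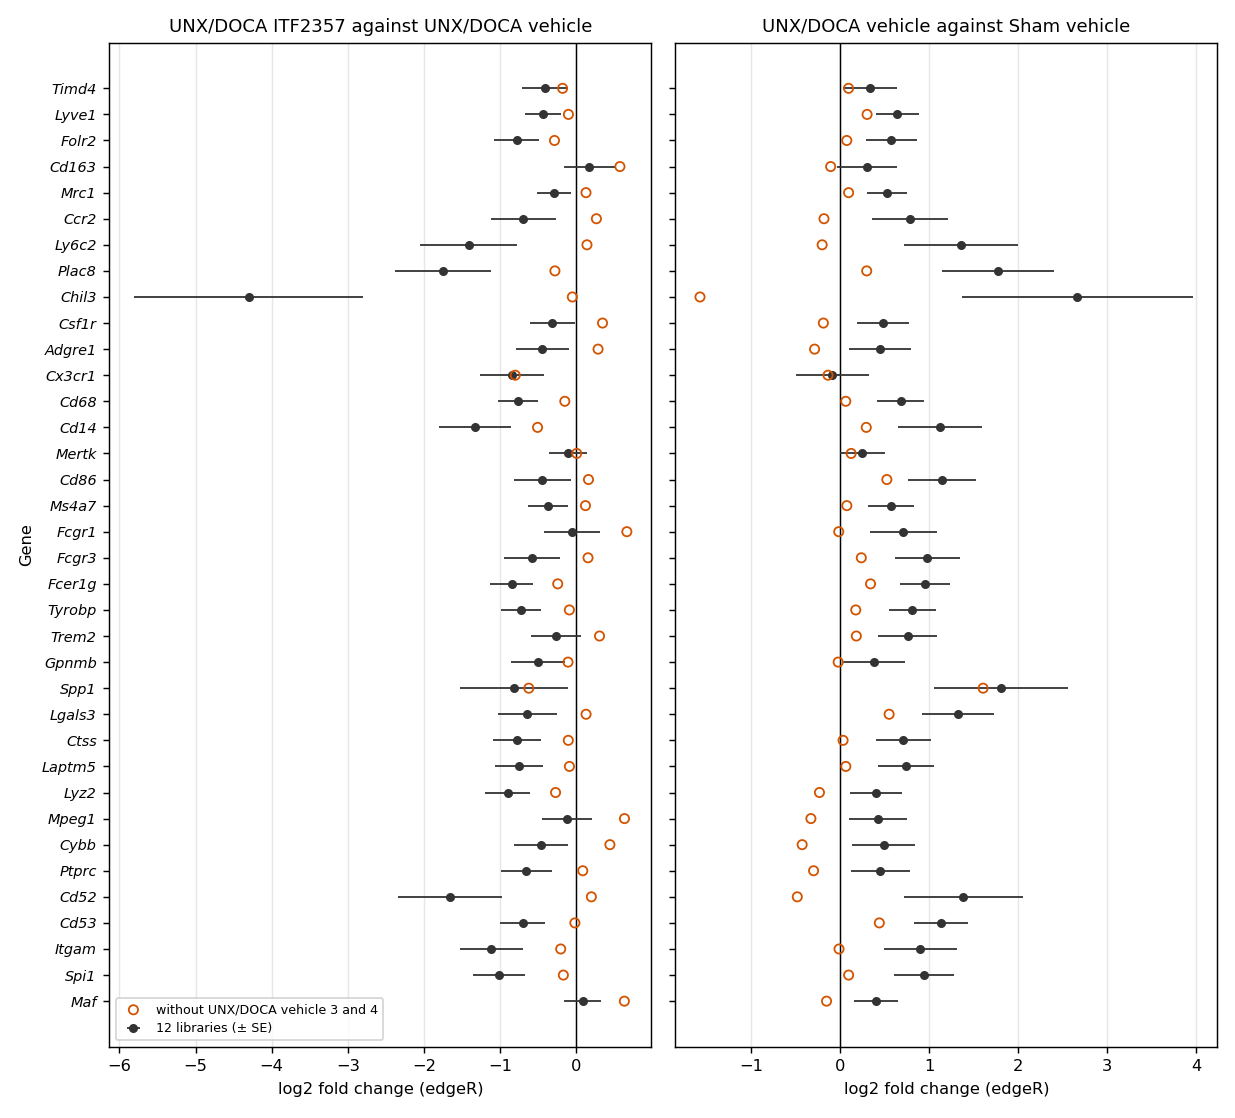
Log2 fold change of each tested gene (x axis) with its standard error, on the left for UNX/DOCA ITF2357 against UNX/DOCA vehicle and on the right for UNX/DOCA vehicle against Sham vehicle. Filled points are from all 12 libraries, open circles from the fit without UNX/DOCA vehicle replicates 3 and 4, where the medians over genes were -0.01 and 0.06.

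Among the resident genes, Timd4, the receptor for phosphatidylserine on dying cells, had 1.26, 1.21, 1.64 and 1.24 CPM in the UNX/DOCA ITF2357 libraries and 1.28, 1.74, 2.74 and 1.44 CPM in the UNX/DOCA vehicle libraries. For Timd4, the Sham vehicle libraries had 2.16, 0.809, 1.46 and 1.28 CPM. Lyve1, a hyaluronan receptor, had 19.9, 32.7, 35.8 and 28.7 CPM in the UNX/DOCA ITF2357 libraries and 25, 37.7, 51.9 and 44.5 CPM in the UNX/DOCA vehicle libraries. For Lyve1, the Sham vehicle libraries had 22.2, 19.6, 33.6 and 26.4 CPM. For Timd4 the log2 fold change was -0.42 ± 0.30 for UNX/DOCA ITF2357 against UNX/DOCA vehicle (SE, edgeR adjusted p = 0.486) and 0.34 ± 0.30 for UNX/DOCA vehicle against Sham vehicle (adjusted p = 0.62), and for Lyve1 the values were -0.44 ± 0.24 (SE, edgeR adjusted p = 0.34) for the drug comparison and 0.64 ± 0.24 (adjusted p = 0.228) for the disease comparison. Sham vehicle overlapped both UNX/DOCA groups in the 2 genes, and for Lyve1 replicates 2 to 4 of UNX/DOCA vehicle exceeded every library of the other groups while replicate 1 did not. Folr2, which encodes folate receptor beta, had 0.628, 1.24, 1.54 and 1.12 CPM in the UNX/DOCA ITF2357 libraries and 1.35, 1.42, 2.53 and 2.59 CPM in the UNX/DOCA vehicle libraries. For Folr2, the Sham vehicle libraries had 1.4, 1.45, 1.03 and 1.36 CPM. Its log2 fold changes were -0.79 ± 0.29 (SE, edgeR adjusted p = 0.181) for the drug comparison and 0.58 ± 0.29 (adjusted p = 0.352) for the disease comparison, and it was the resident gene with an unadjusted p under 0.05 (0.0187) in the drug comparison.

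Cd163 encodes the scavenger receptor for haemoglobin bound to haptoglobin. It had 16.9, 41.9, 36.1 and 57.2 CPM in the UNX/DOCA ITF2357 libraries and 21.7, 29.1, 38.7 and 45.8 CPM in the UNX/DOCA vehicle libraries. For Cd163, the Sham vehicle libraries had 19, 27.3, 37.6 and 25.6 CPM. Here the log2 fold change was 0.17 ± 0.33 for UNX/DOCA ITF2357 against UNX/DOCA vehicle (SE, edgeR adjusted p = 0.831) and 0.31 ± 0.34 for UNX/DOCA vehicle against Sham vehicle (adjusted p = 0.694). Cd163 was the resident gene that did not share the negative sign in the drug comparison, and its highest library was UNX/DOCA ITF2357 replicate 4, without which the value was -0.09. Mrc1, the mannose receptor, had 30.0, 42.9, 44.4 and 54.6 CPM in the UNX/DOCA ITF2357 libraries and 30.5, 47.9, 68.3 and 64.6 CPM in the UNX/DOCA vehicle libraries. For Mrc1, the Sham vehicle libraries had 32.8, 37, 35.6 and 41.3 CPM. Its values were -0.30 ± 0.23 (SE, edgeR adjusted p = 0.517) for the drug comparison and 0.52 ± 0.23 (adjusted p = 0.297) for the disease comparison. UNX/DOCA vehicle replicates 3 and 4 held the top places for Mrc1 and replicate 1 the lowest of its group. Without replicates 3 and 4 the resident median was -0.11 for UNX/DOCA ITF2357 against UNX/DOCA vehicle and 0.09 for UNX/DOCA vehicle against Sham vehicle. The disease values were then 0.09 for Timd4, 0.30 for Lyve1, 0.07 for Folr2, -0.11 for Cd163 and 0.10 for Mrc1.

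Of the recruited genes, Ccr2, the receptor for the monocyte attractant CCL2, had 2.03, 2.97, 3.18 and 1.37 CPM in the UNX/DOCA ITF2357 libraries and 2.12, 1.87, 6.47 and 5.24 CPM in the UNX/DOCA vehicle libraries. For Ccr2, the Sham vehicle libraries had 2.09, 3.46, 1.22 and 2.2 CPM. Ly6c2, a surface protein of classical monocytes, had 0.849, 0.425, 0.72 and 0.869 CPM in the UNX/DOCA ITF2357 libraries and 0.505, 0.775, 4.81 and 1.62 CPM in the UNX/DOCA vehicle libraries. For Ly6c2, the Sham vehicle libraries had 0.228, 1.2, 0.672 and 0.8 CPM. In both genes UNX/DOCA vehicle replicates 3 and 4 were the top libraries, and replicates 1 and 2 lay inside the Sham vehicle range. The log2 fold changes of Ccr2 were -0.70 ± 0.43 (SE, edgeR adjusted p = 0.402) for the drug comparison and 0.79 ± 0.43 (adjusted p = 0.39) for the disease comparison, and those of Ly6c2 were -1.42 ± 0.64 (SE, edgeR adjusted p = 0.261) for the drug comparison and 1.36 ± 0.64 (adjusted p = 0.321) for the disease comparison. Ly6c2 shares most of its sequence with Ly6c1, an endothelial gene at 139 to 267 CPM in these libraries, and how shared reads were counted is not given, so its values are uncertain.

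Plac8, a small cysteine-rich protein of monocytes and other leukocytes, had 0.0739, 0.303, 0.262 and 0.455 CPM in the UNX/DOCA ITF2357 libraries and 0.303, 0.355, 2.08 and 1.04 CPM in the UNX/DOCA vehicle libraries. For Plac8, the Sham vehicle libraries had 0.38, 0.251, 0.119 and 0.32 CPM. Chil3, a chitinase-like protein secreted by monocytes, alternatively activated macrophages and neutrophil precursors, had 0.148, 0.152, 0.262 and 0.496 CPM in the UNX/DOCA ITF2357 libraries and 0.505, 0.0323, 17.8 and 2.55 CPM in the UNX/DOCA vehicle libraries. For Chil3, the Sham vehicle libraries had 0.266, 2.4, 0.158 and 0.2 CPM. Chil3 in UNX/DOCA vehicle replicate 2 rested on 1 read, and Sham vehicle replicate 2 stood far above its group. For Plac8 the log2 fold changes were -1.75 ± 0.63 (SE, edgeR adjusted p = 0.168) for the drug comparison and 1.77 ± 0.63 (adjusted p = 0.212) for the disease comparison, and for Chil3 they were -4.30 ± 1.5 (SE, edgeR adjusted p = 0.168) for the drug comparison and 2.67 ± 1.30 (adjusted p = 0.346) for the disease comparison. Without UNX/DOCA vehicle replicate 3 the Chil3 values were -1.97 and 0.34. The recruited median was then -0.74 for the drug comparison and 0.41 for the disease comparison, and without replicates 3 and 4 it was 0.04 and -0.19. Without both libraries Chil3 itself was -0.05 and -1.58. Chil4, a near copy of Chil3, had 0 counts in all libraries.

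Set against each other within a library, the recruited genes were a small part of the signal. The 5 resident genes summed to 68.6, 119.9, 119 and 143 CPM in UNX/DOCA ITF2357, 79.9, 118, 164 and 159 under UNX/DOCA vehicle and 77.5, 86.1, 109 and 95.9 under Sham vehicle, and their means were 113 ± 31.3, 130.2 ± 39.4 and 92.2 ± 13.7 CPM in UNX/DOCA ITF2357, UNX/DOCA vehicle and Sham vehicle (SD, n = 4 each). The 4 recruited genes summed to 3.1, 3.85, 4.42 and 3.19 CPM in UNX/DOCA ITF2357, 3.44, 3.03, 31.1 and 10.5 under UNX/DOCA vehicle and 2.96, 7.31, 2.17 and 3.52 under Sham vehicle. Both sums were highest in UNX/DOCA vehicle replicates 3 and 4, and for both sums replicate 1 of that group lay inside the Sham vehicle range. As a share of the resident sum the recruited sum was 4.52%, 3.21%, 3.70% and 2.23% in UNX/DOCA ITF2357, 4.30%, 2.57%, 19% and 6.58% under UNX/DOCA vehicle and 3.82%, 8.49%, 1.99% and 3.67% under Sham vehicle. The highest Sham vehicle share, in replicate 2, was above that of UNX/DOCA vehicle replicate 4, so the groups overlapped. Much of the peak was Chil3: without that gene the shares were 1.88% to 4.30% in UNX/DOCA ITF2357, 2.55% to 8.14% under UNX/DOCA vehicle and 1.84% to 5.70% under Sham vehicle. Ccr2 alone was 0.956% to 2.96% of the resident sum in UNX/DOCA ITF2357, 1.59% to 3.94% under UNX/DOCA vehicle and 1.12% to 4.02% under Sham vehicle. The difference between the mean log2 deviations of recruited and resident genes averaged -0.36 ± 0.18 in UNX/DOCA ITF2357, 0.51 ± 1.25 under UNX/DOCA vehicle and -0.15 ± 0.82 under Sham vehicle (SD, n = 4 each), with the UNX/DOCA vehicle libraries at 0.02, -0.89, 2.06 and 0.86.

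**Figure D3:**
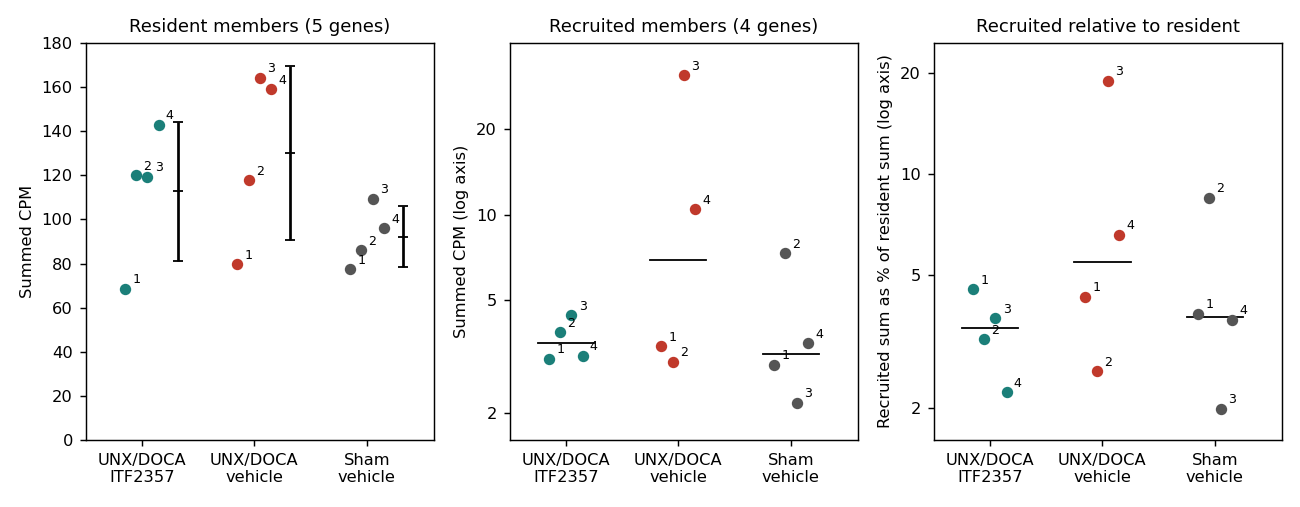
Summed CPM of the 5 resident genes (left, linear axis from 0, with mean and SD), summed CPM of the 4 recruited genes (middle, log axis) and the recruited sum as a percentage of the resident sum (right, log axis); points are libraries with their replicate number and bars in the middle and right panels are medians. UNX/DOCA vehicle replicate 3 is highest in all 3 panels, at 164 CPM, 31.1 CPM and 19%.

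Surface genes that define macrophages followed the same libraries to different degrees. Csf1r, the receptor for the survival factors CSF1 and interleukin-34, had 36.9, 53.9, 48.1 and 64.1 CPM in the UNX/DOCA ITF2357 libraries and 35.6, 44.1, 109.7 and 64 CPM in the UNX/DOCA vehicle libraries. For Csf1r, the Sham vehicle libraries had 40.7, 51.9, 40.4 and 48.6 CPM. For Csf1r the log2 fold change was -0.32 ± 0.29 for UNX/DOCA ITF2357 against UNX/DOCA vehicle (SE, edgeR adjusted p = 0.6) and 0.48 ± 0.29 for UNX/DOCA vehicle against Sham vehicle (adjusted p = 0.454), and without UNX/DOCA vehicle replicate 3 the drug value was 0.08. Replicate 3 stood alone for Csf1r, since replicate 4 was level with UNX/DOCA ITF2357 replicate 4. Adgre1, the F4/80 antigen, had means of 12 ± 2.53 CPM in UNX/DOCA ITF2357, 16.4 ± 9.92 under UNX/DOCA vehicle and 11.9 ± 3.34 under Sham vehicle (SD, n = 4 each), with log2 fold changes of -0.45 and 0.45 that became 0.04 and -0.05 without replicate 3. Cd68, a glycoprotein of lysosomal membranes, had 6.06, 7.95, 6.71 and 7.99 CPM in the UNX/DOCA ITF2357 libraries and 6.74, 9.14, 18.3 and 14.7 CPM in the UNX/DOCA vehicle libraries. For Cd68, the Sham vehicle libraries had 8.09, 7.51, 5.73 and 9.08 CPM. For Cd68, log2 fold changes were -0.76 ± 0.26 (SE, edgeR adjusted p = 0.155) for the drug comparison and 0.68 ± 0.26 (adjusted p = 0.242) for the disease comparison. Cd14, the co-receptor for bacterial lipopolysaccharide, had 5.54, 15.1, 6.29 and 20.6 CPM in the UNX/DOCA ITF2357 libraries and 19.5, 14, 54.7 and 31.4 CPM in the UNX/DOCA vehicle libraries. For Cd14, the Sham vehicle libraries had 15, 9.35, 15 and 15.4 CPM. The log2 fold changes of Cd14 were -1.33 ± 0.48 (SE, edgeR adjusted p = 0.172) for the drug comparison and 1.13 ± 0.47 (adjusted p = 0.286) for the disease comparison, the first being the widest of the surface genes in the drug comparison, and UNX/DOCA ITF2357 replicates 1 and 3 were below every other library.

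The remaining surface genes differed in how far they varied. Mertk, a receptor kinase for engulfing dying cells, had 10.6 ± 2.69 CPM in UNX/DOCA ITF2357, 11.5 ± 2.14 under UNX/DOCA vehicle and 9.7 ± 3.79 under Sham vehicle (SD, n = 4 each), and the log2 fold change was -0.12 ± 0.25 for UNX/DOCA ITF2357 against UNX/DOCA vehicle (SE, edgeR adjusted p = 0.848) and 0.25 ± 0.25 for UNX/DOCA vehicle against Sham vehicle (adjusted p = 0.663). With replicate 1 of UNX/DOCA ITF2357 or replicate 4 of UNX/DOCA vehicle left out, the drug value of Mertk was 0.04 or 0.01. Cd86, a co-stimulator of T cells, had 2.4, 2.12, 2.42 and 5.83 CPM in the UNX/DOCA ITF2357 libraries and 2.12, 3.52, 6.97 and 4.78 CPM in the UNX/DOCA vehicle libraries. For Cd86, the Sham vehicle libraries had 1.52, 2.43, 2.02 and 1.84 CPM. For Cd86, log2 fold changes were -0.45 ± 0.37 (SE, edgeR adjusted p = 0.555) for the drug comparison and 1.14 ± 0.38 (adjusted p = 0.197) for the disease comparison. UNX/DOCA ITF2357 replicate 4 was above every other library but UNX/DOCA vehicle replicate 3. Ms4a7 had 2.43 ± 0.463 CPM in UNX/DOCA ITF2357, 3.15 ± 1.16 under UNX/DOCA vehicle and 2.1 ± 0.493 under Sham vehicle (SD, n = 4 each). For Ms4a7, log2 fold changes were -0.37 ± 0.26 (SE, edgeR adjusted p = 0.474) for the drug comparison and 0.57 ± 0.26 (adjusted p = 0.314) for the disease comparison.

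Cx3cr1, the receptor for fractalkine and a gene of non-classical monocytes and some resident macrophages, differed from the other 35 genes in the sign of the disease comparison. It had 1.88, 1, 0.95 and 0.993 CPM in the UNX/DOCA ITF2357 libraries and 3.1, 1.1, 2.66 and 1.83 CPM in the UNX/DOCA vehicle libraries. For Cx3cr1, the Sham vehicle libraries had 2.16, 3.24, 0.79 and 2.96 CPM. UNX/DOCA ITF2357 replicates 2 to 4 were close to 1 CPM, as was replicate 2 of UNX/DOCA vehicle. Against Sham vehicle its log2 fold change in UNX/DOCA ITF2357 was -0.93 ± 0.42 (SE, edgeR unadjusted p = 0.0464, adjusted p = 0.241). Against UNX/DOCA vehicle it was -0.85 ± 0.42 (adjusted p = 0.307), and -0.80 without UNX/DOCA vehicle replicates 3 and 4. It was the 1 gene of the 36 with a negative value in UNX/DOCA vehicle against Sham vehicle, -0.09 ± 0.41 (adjusted p = 0.937), and that sign turned when replicate 2 of UNX/DOCA vehicle (0.13), or replicate 2 (0.13) or 4 (0.05) of Sham vehicle, was left out.

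Receptors for antibody and their signalling adaptors held the smallest p-value of the 36 genes in the drug comparison. Fcer1g, the shared gamma chain of Fc receptors, had 4.51, 5.64, 5.3 and 6.25 CPM in the UNX/DOCA ITF2357 libraries and 5.73, 7.07, 17 and 9.45 CPM in the UNX/DOCA vehicle libraries. For Fcer1g, the Sham vehicle libraries had 5.09, 5.5, 3.91 and 5.68 CPM. UNX/DOCA vehicle lay wholly above Sham vehicle for Fcer1g, with the lowest UNX/DOCA vehicle library at 5.73 CPM and the highest Sham vehicle library at 5.68. The values of Fcer1g were -0.85 ± 0.28 (SE, edgeR adjusted p = 0.141) for the drug comparison and 0.95 ± 0.28 (adjusted p = 0.152) for the disease comparison. Tyrobp, the adaptor that carries signals of TREM2 and related receptors, had 6.17, 6.07, 6.61 and 8.52 CPM in the UNX/DOCA ITF2357 libraries and 7.08, 7.42, 18.1 and 12.7 CPM in the UNX/DOCA vehicle libraries. For Tyrobp, the Sham vehicle libraries had 6.45, 6.86, 5.22 and 7.12 CPM. For Tyrobp, log2 fold changes were -0.72 ± 0.26 (SE, edgeR adjusted p = 0.172) for the drug comparison and 0.81 ± 0.26 (adjusted p = 0.183) for the disease comparison. Fcgr3, a low-affinity IgG receptor, had 14.1 ± 5.12 CPM in UNX/DOCA ITF2357, 21.2 ± 11.2 under UNX/DOCA vehicle and 10.7 ± 2.61 under Sham vehicle (SD, n = 4 each), and Fcgr1, the high-affinity IgG receptor, had 1.9 ± 0.493 CPM in UNX/DOCA ITF2357, 2 ± 1.06 under UNX/DOCA vehicle and 1.21 ± 0.416 under Sham vehicle (SD, n = 4 each). Their log2 fold changes were -0.58 ± 0.36 and -0.06 ± 0.37 (SE) in the drug comparison and 0.98 ± 0.37 and 0.71 ± 0.38 in the disease comparison. The drug value of Fcgr1 turned positive when replicate 1 of UNX/DOCA ITF2357 (0.11), or replicate 3 (0.28) or 4 (0.02) of UNX/DOCA vehicle, was left out. Fcgr2b at 7.39 to 30.2 CPM and Fcgr4 at 0.158 to 2.53 CPM are close relatives of Fcgr3 whose reads could be shared with it.

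Genes of lipid-associated and matrix-remodelling macrophages had a median log2 fold change of 1.04 in UNX/DOCA vehicle against Sham vehicle and -0.57 in UNX/DOCA ITF2357 against UNX/DOCA vehicle. Without UNX/DOCA vehicle replicates 3 and 4 these medians were 0.37 in the disease and 0.01 in the drug comparison. By gene the disease value was then 1.61 for Spp1, 0.55 for Lgals3, 0.18 for Trem2 and -0.02 for Gpnmb. Lgals3, which encodes galectin-3, had 1.81, 4.73, 2.59 and 4.05 CPM in the UNX/DOCA ITF2357 libraries and 2.46, 3.55, 8.63 and 6.07 CPM in the UNX/DOCA vehicle libraries. For Lgals3, the Sham vehicle libraries had 1.86, 1.65, 1.66 and 3.08 CPM. Its values were -0.64 ± 0.39 (SE, edgeR adjusted p = 0.398) for the drug comparison and 1.33 ± 0.40 (adjusted p = 0.161) for the disease comparison. Spp1, the gene of osteopontin, had 1.88, 0.516, 0.819 and 2.57 CPM in the UNX/DOCA ITF2357 libraries and 1.58, 2.78, 4.23 and 1.51 CPM in the UNX/DOCA vehicle libraries. For Spp1, the Sham vehicle libraries had 0.152, 0.614, 0.079 and 2.04 CPM. In Spp1 Sham vehicle replicate 4 lay inside the UNX/DOCA vehicle range while the other 3 Sham vehicle libraries lay below it, and the values were -0.82 ± 0.71 (SE, edgeR adjusted p = 0.571) for the drug comparison and 1.81 ± 0.75 (adjusted p = 0.278) for the disease comparison. Without UNX/DOCA vehicle replicates 3 and 4 Spp1 had a log2 fold change of 1.61 against Sham vehicle (edgeR adjusted p = 0.792). Trem2, a lipid-sensing receptor, had 1.14, 1.4, 1.96 and 2.73 CPM in the UNX/DOCA ITF2357 libraries and 1.45, 1.45, 2.82 and 2.98 CPM in the UNX/DOCA vehicle libraries. For Trem2, the Sham vehicle libraries had 1.06, 1.7, 1.34 and 0.96 CPM. Gpnmb, a glycoprotein of phagocytic cells, had 0.721 ± 0.26 CPM in UNX/DOCA ITF2357, 1.03 ± 0.379 under UNX/DOCA vehicle and 0.793 ± 0.316 under Sham vehicle (SD, n = 4 each). For Gpnmb, log2 fold changes were -0.50 ± 0.36 (SE, edgeR adjusted p = 0.478) for the drug comparison and 0.38 ± 0.36 (adjusted p = 0.638) for the disease comparison. For Trem2 the values were -0.27 ± 0.32 (SE, edgeR adjusted p = 0.699) for the drug comparison and 0.76 ± 0.33 (adjusted p = 0.294) for the disease comparison, and UNX/DOCA ITF2357 replicate 4 was close to UNX/DOCA vehicle replicates 3 and 4.

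Lysosomal and host-defence genes included the gene whose libraries did not overlap between the UNX/DOCA groups. Lyz2 had 29.3, 41.6, 38.3 and 39.7 CPM in the UNX/DOCA ITF2357 libraries and 47.7, 42, 112 and 76.8 CPM in the UNX/DOCA vehicle libraries. For Lyz2, the Sham vehicle libraries had 40.1, 71, 39.2 and 60.1 CPM. All 4 UNX/DOCA ITF2357 libraries were below the lowest UNX/DOCA vehicle library at 42.0 CPM, by a narrow margin since the highest was 41.6. For Lyz2 the log2 fold change was -0.90 ± 0.29 for UNX/DOCA ITF2357 against UNX/DOCA vehicle (SE, edgeR adjusted p = 0.142) and 0.40 ± 0.29 for UNX/DOCA vehicle against Sham vehicle (adjusted p = 0.537). Lyz1, a close copy, had 0.124 to 2.32 CPM. Ctss, the protease cathepsin S that prepares class II molecules, had 13.4 ± 2.76 CPM in UNX/DOCA ITF2357, 23 ± 10.3 under UNX/DOCA vehicle and 14 ± 4.41 under Sham vehicle (SD, n = 4 each). For Ctss, log2 fold changes were -0.78 ± 0.31 (SE, edgeR adjusted p = 0.209) for the drug comparison and 0.71 ± 0.31 (adjusted p = 0.298) for the disease comparison. Laptm5, a lysosomal membrane protein of blood cells, had 13.4 ± 3.51 CPM in UNX/DOCA ITF2357, 22.7 ± 11.9 under UNX/DOCA vehicle and 13.6 ± 2.6 under Sham vehicle (SD, n = 4 each). For Laptm5, log2 fold changes were -0.76 ± 0.31 (SE, edgeR adjusted p = 0.221) for the drug comparison and 0.74 ± 0.31 (adjusted p = 0.288) for the disease comparison. Cybb, a subunit of the oxidase that makes superoxide, had 12.1 ± 2.79 CPM in UNX/DOCA ITF2357, 16.9 ± 10.2 under UNX/DOCA vehicle and 12 ± 2.29 under Sham vehicle (SD, n = 4 each). For Cybb, log2 fold changes were -0.47 ± 0.35 (SE, edgeR adjusted p = 0.508) for the drug comparison and 0.49 ± 0.35 (adjusted p = 0.532) for the disease comparison. Mpeg1, a pore-forming protein that attacks engulfed bacteria, had 9.86, 12.4, 11.6 and 11.3 CPM in the UNX/DOCA ITF2357 libraries and 9.03, 5.52, 16.8 and 17.9 CPM in the UNX/DOCA vehicle libraries. For Mpeg1, the Sham vehicle libraries had 6, 12.9, 7.55 and 9.96 CPM. The spread of Mpeg1 was narrow in UNX/DOCA ITF2357 and wide in UNX/DOCA vehicle, where replicate 2 was lowest of all 12 libraries. Its drug value was -0.12 ± 0.33 (SE, edgeR adjusted p = 0.879), which turned to 0.06 without UNX/DOCA vehicle replicate 3, 0.12 without replicate 4 and 0.63 without both.

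Genes of all leukocytes gave the smallest p-value of the 36 genes in the disease comparison. Cd53, a tetraspanin of leukocyte membranes, had 5.87, 9.01, 6.19 and 11 CPM in the UNX/DOCA ITF2357 libraries and 7.78, 8.39, 21.1 and 15.3 CPM in the UNX/DOCA vehicle libraries. For Cd53, the Sham vehicle libraries had 5.35, 6.22, 5.89 and 6.36 CPM. All 4 Sham vehicle libraries lay close together and below the lowest UNX/DOCA vehicle library. The values of Cd53 were -0.71 ± 0.30 (SE, edgeR adjusted p = 0.226) for the drug comparison and 1.14 ± 0.30 (adjusted p = 0.13) for the disease comparison. Itgam, the alpha subunit of an integrin of monocytes, macrophages and neutrophils, had 1.37, 1.82, 1.64 and 1.49 CPM in the UNX/DOCA ITF2357 libraries and 2.16, 1.48, 6.93 and 3.27 CPM in the UNX/DOCA vehicle libraries. For Itgam, the Sham vehicle libraries had 1.75, 2.4, 0.988 and 2.16 CPM. For Itgam, log2 fold changes were -1.12 ± 0.41 (SE, edgeR adjusted p = 0.18) for the drug comparison and 0.90 ± 0.41 (adjusted p = 0.309) for the disease comparison. Cd52, a small surface glycoprotein, had 1.07, 1.12, 1.15 and 1.49 CPM in the UNX/DOCA ITF2357 libraries and 1.48, 0.613, 10.1 and 3.27 CPM in the UNX/DOCA vehicle libraries. For Cd52, the Sham vehicle libraries had 1.1, 2.54, 0.711 and 1.4 CPM, and UNX/DOCA vehicle replicate 3 held by far the top value while replicate 2 held the lowest. Its values were -1.66 ± 0.68 (SE, edgeR adjusted p = 0.217) for the drug comparison and 1.38 ± 0.67 (adjusted p = 0.34) for the disease comparison. Ptprc, the common leukocyte phosphatase, had 9.02 ± 1.74 CPM in UNX/DOCA ITF2357, 14.3 ± 7 under UNX/DOCA vehicle and 10.4 ± 2.83 under Sham vehicle (SD, n = 4 each). For Ptprc, log2 fold changes were -0.66 ± 0.33 (SE, edgeR adjusted p = 0.311) for the drug comparison and 0.45 ± 0.33 (adjusted p = 0.539) for the disease comparison.

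The transcription factors of the set differed from each other. Spi1 had 3.06, 3.88, 3.11 and 4.43 CPM in the UNX/DOCA ITF2357 libraries and 4.04, 4.07, 12.9 and 8.37 CPM in the UNX/DOCA vehicle libraries. For Spi1, the Sham vehicle libraries had 3.42, 3.88, 2.96 and 4.92 CPM. UNX/DOCA vehicle replicates 1 and 2 had Spi1 levels inside the range of the other groups, and replicates 3 and 4 had the highest of all 12. For Spi1 the log2 fold change was -1.02 ± 0.34 for UNX/DOCA ITF2357 against UNX/DOCA vehicle (SE, edgeR adjusted p = 0.144) and 0.95 ± 0.34 for UNX/DOCA vehicle against Sham vehicle (adjusted p = 0.212). Maf, a factor of tissue-resident macrophages that heart cells of other kinds also express, had 19.1, 15.8, 17.2 and 18.3 CPM in the UNX/DOCA ITF2357 libraries and 9.4, 13.3, 27.4 and 16.7 CPM in the UNX/DOCA vehicle libraries. For Maf, the Sham vehicle libraries had 11.2, 11.6, 13.3 and 14.4 CPM. UNX/DOCA ITF2357 lay wholly above Sham vehicle, the only case of the 36 (2.78%) where 7.27% of all genes did. Against Sham vehicle its log2 fold change was 0.48 ± 0.25 (SE, edgeR adjusted p = 0.295), and 0.48 in a fit of only these groups (adjusted p = 0.0421). Against UNX/DOCA vehicle the value was 0.08 ± 0.24 (adjusted p = 0.89), which was -0.11 without UNX/DOCA vehicle replicate 1, -0.01 without replicate 2 and 0.63 without replicates 3 and 4.

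**Figure D4:**
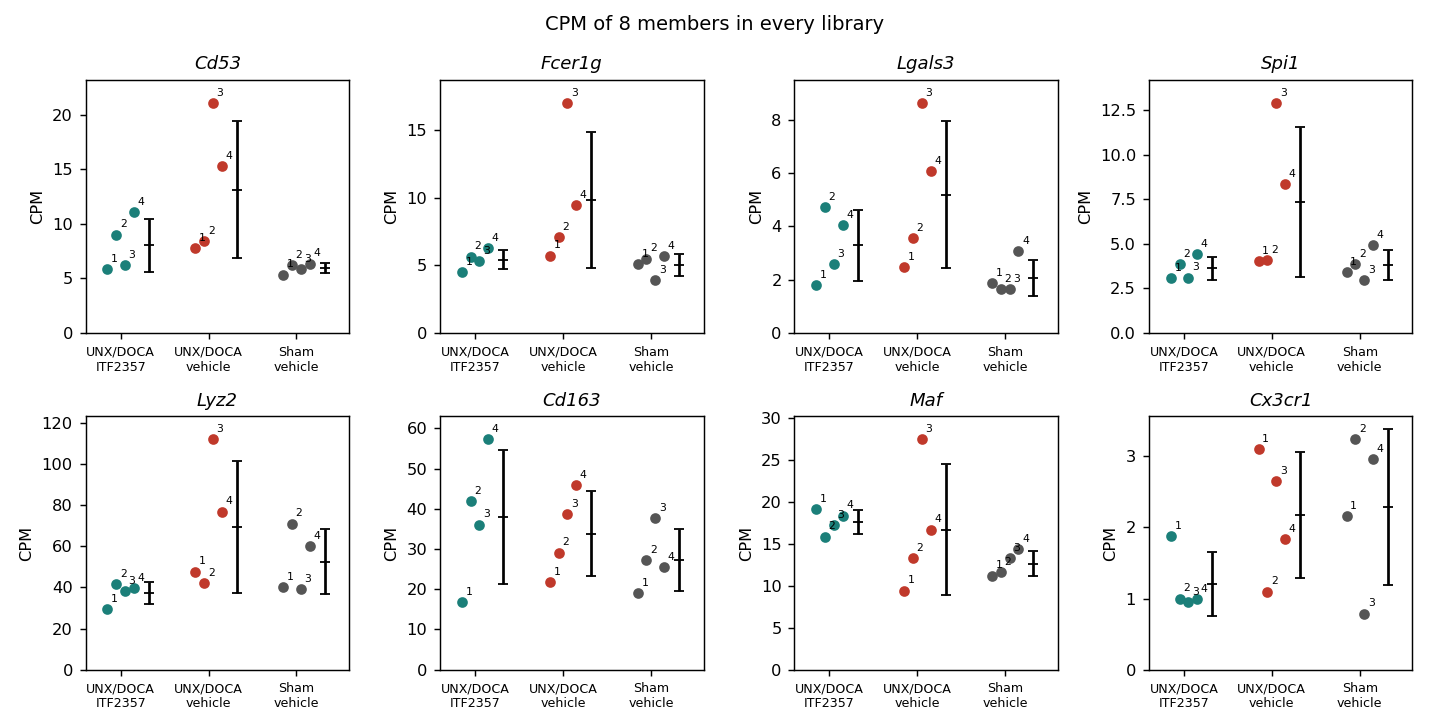
CPM (linear axes from 0) of 8 genes in every library, with replicate numbers and, beside each group, the mean and SD of its 4 libraries. Lyz2 in UNX/DOCA ITF2357 stays below all UNX/DOCA vehicle libraries, Maf in UNX/DOCA ITF2357 above all Sham vehicle libraries, and UNX/DOCA vehicle replicate 3 is the top point for Cd53, Fcer1g, Lgals3, Spi1, Lyz2 and Maf.

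Markers of neutrophils were highest in the same 2 libraries. A list of 13 neutrophil genes, each detected in some library, summed to 6.46, 27.7, 21.9 and 38.4 CPM in UNX/DOCA ITF2357, 33.1, 15.9, 818 and 214 under UNX/DOCA vehicle and 42.3, 70.1, 22.5 and 44.2 under Sham vehicle. The 2 UNX/DOCA vehicle libraries that led the macrophage genes, replicates 3 and 4, were thus the highest by far, and UNX/DOCA vehicle replicate 2 was the second lowest. Of 11 tested neutrophil genes 11 had a negative log2 fold change in UNX/DOCA ITF2357 against UNX/DOCA vehicle (median -3.65) and 11 a positive one in UNX/DOCA vehicle against Sham vehicle (median 2.49), and edgeR called 0 in each. At an unadjusted p under 0.05 these were 11 and 2, where 9.79% of all genes were lower and 9.42% higher. Lcn2, an iron-binding protein of neutrophil granules that stressed tissue also makes, averaged 5.34 ± 3.14 CPM in UNX/DOCA ITF2357, 32.8 ± 34 under UNX/DOCA vehicle and 5.04 ± 2.04 under Sham vehicle (SD, n = 4 each). The defining gene Ly6g had 0 counts in replicate 1 of UNX/DOCA ITF2357, in replicates 1 and 2 of UNX/DOCA vehicle and in replicate 3 of Sham vehicle. It reached 3.49 CPM in UNX/DOCA vehicle replicate 3. The part of these cells in the levels of Lyz2, Itgam, Cybb, Chil3, Cd52, Fcer1g and the other shared genes was not tested.

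**Figure D5:**
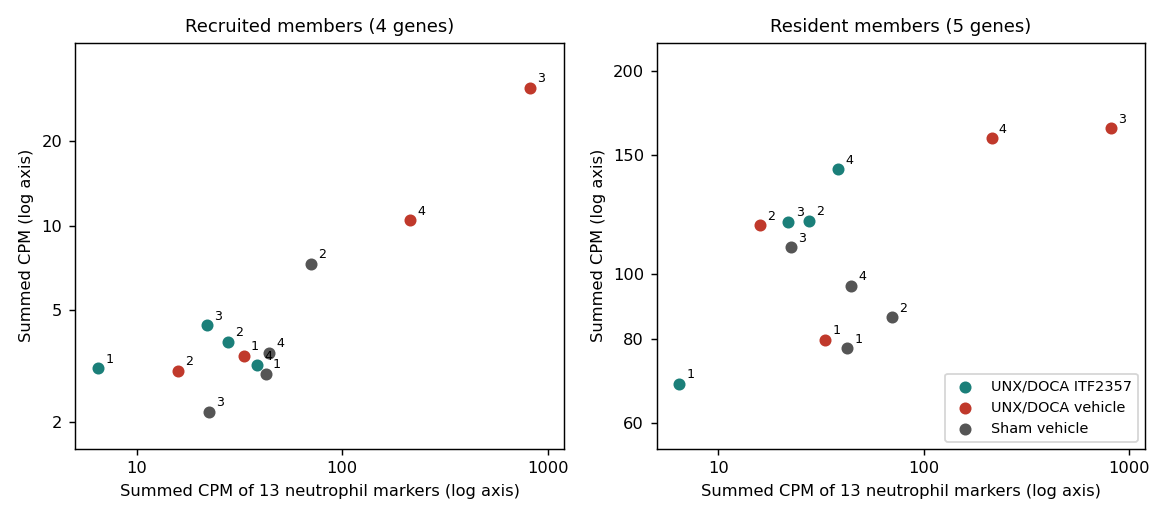
Summed CPM of 13 neutrophil markers (x, log axis) against the summed CPM of the 4 recruited genes (left) and the 5 resident genes (right), both on log axes; each point is a library with its replicate number. UNX/DOCA vehicle replicates 3 and 4, at 818 and 214 CPM of neutrophil markers, are highest on both axes in each panel.

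Markers of other cell types were summed in the same way. Lymphatic endothelium also uses Lyve1, which was not in its marker list. Its markers summed to 105 to 121 CPM in UNX/DOCA ITF2357, 91.5 to 118 under UNX/DOCA vehicle and 80.8 to 123 under Sham vehicle. Class II antigen genes summed to 124, 173, 135 and 163 CPM in UNX/DOCA ITF2357, 122, 153, 423 and 289 under UNX/DOCA vehicle and 126, 199, 107 and 127 under Sham vehicle, so that UNX/DOCA vehicle replicates 3 and 4 were the highest libraries and replicates 1 and 2 lay inside the Sham vehicle range. Of 7 class II genes 5 were higher at an unadjusted p under 0.05 in UNX/DOCA vehicle against Sham vehicle, where 9.42% of all genes were, with 0 called. The median of the 7 was -0.04 without replicates 3 and 4. Mast cells also use Fcer1g, which was not in their marker list. Their markers summed to 3.55 to 11.5 CPM in UNX/DOCA ITF2357, 5.86 to 19.7 under UNX/DOCA vehicle and 2.88 to 5.88 under Sham vehicle. Fibroblast markers summed to 1306 to 1558 CPM in UNX/DOCA ITF2357, 1358 to 1859 under UNX/DOCA vehicle and 1380 to 1616 under Sham vehicle and blood endothelial markers to 528 to 835 CPM in UNX/DOCA ITF2357, 707 to 778 under UNX/DOCA vehicle and 618 to 734 under Sham vehicle. Of 8 T and NK cell markers only 2 had enough counts to be tested. The B cell marker Cd79b was called lower by edgeR in UNX/DOCA ITF2357 than in UNX/DOCA vehicle (log2 fold change -1.78 ± 0.36 SE, adjusted p = 0.0432). Of 5 cell-division genes edgeR called Top2a lower (-2.67 ± 0.44 SE, adjusted p = 0.0204), and the 5 summed to 1.26 to 5.13 CPM in UNX/DOCA ITF2357, 6.64 to 20.3 under UNX/DOCA vehicle and 8.53 to 12.9 under Sham vehicle.

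Genes around the macrophage lineage were read from lists chosen by function. For comparison with the counts below, at an unadjusted p under 0.05 9.42% of all genes were higher in the disease comparison. In the drug comparison 9.79% of all genes were lower at that level. Of 8 tested chemokines for monocytes 6 were higher and 2 lower in UNX/DOCA vehicle than in Sham vehicle by sign, and 0 were called by edgeR, with 4 at an unadjusted p under 0.05. Ccl9 averaged 17.2 ± 6.59 CPM in UNX/DOCA ITF2357, 26.8 ± 10.0 under UNX/DOCA vehicle and 12 ± 2.11 under Sham vehicle (SD, n = 4 each), and Ccl6 25.3 ± 8.89 CPM in UNX/DOCA ITF2357, 35.4 ± 9.38 under UNX/DOCA vehicle and 17.9 ± 3.48 under Sham vehicle (SD, n = 4 each). Both had UNX/DOCA vehicle libraries wholly above Sham vehicle, replicates 1 and 2 included, where 5.03% of all genes lay wholly higher. They were named for the smallest unadjusted p of the list, with log2 fold changes of 1.16 ± 0.31 (SE, edgeR adjusted p = 0.13) and 0.99 ± 0.26 (adjusted p = 0.133). Against UNX/DOCA vehicle all 8 were negative in UNX/DOCA ITF2357, 0 called and 2 at an unadjusted p under 0.05. Ccl2, the ligand of CCR2, averaged 1.36 ± 0.723 CPM in UNX/DOCA ITF2357, 4.8 ± 3.1 under UNX/DOCA vehicle and 5.26 ± 4.24 under Sham vehicle (SD, n = 4 each) (log2 fold change -1.82 ± 0.72 SE, edgeR adjusted p = 0.206), and Ccl7, another ligand of CCR2, averaged 1.28 ± 0.705 CPM in UNX/DOCA ITF2357, 4.56 ± 4.07 under UNX/DOCA vehicle and 3.81 ± 1.95 under Sham vehicle (SD, n = 4 each) (-1.82 ± 0.69, adjusted p = 0.19). For these chemokines UNX/DOCA vehicle did not lie above Sham vehicle as it did for Ccl6 and Ccl9.

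The growth factor Csf1, which keeps macrophages alive through CSF1R, averaged 27.1 ± 4.21 CPM in UNX/DOCA ITF2357, 42.3 ± 11.7 under UNX/DOCA vehicle and 36.5 ± 7.34 under Sham vehicle (SD, n = 4 each), with a log2 fold change of -0.64 ± 0.19 (SE, edgeR adjusted p = 0.117) in UNX/DOCA ITF2357 against UNX/DOCA vehicle. Csf2rb, the shared beta chain of receptors for GM-CSF and related cytokines, averaged 3.76 ± 2.38 CPM in UNX/DOCA ITF2357, 9.38 ± 8.74 under UNX/DOCA vehicle and 2.34 ± 0.471 under Sham vehicle (SD, n = 4 each). Of the 4 tested genes of this list 0 were called in either comparison. Their median log2 fold change was -0.57 in the drug and 0.75 in the disease comparison. Without UNX/DOCA vehicle replicates 3 and 4 it was 0.05 and 0.27. The complement genes of the C1q list, made largely by tissue macrophages, were all positive in UNX/DOCA vehicle against Sham vehicle (median 0.76) and 3 of 3 had an unadjusted p under 0.05, with 0 called. They were all negative in UNX/DOCA ITF2357 against UNX/DOCA vehicle (median -0.43), with 0 of 3 under 0.05. Their sums were 87, 111, 113 and 156 CPM in UNX/DOCA ITF2357, 89.2, 126, 253 and 176 under UNX/DOCA vehicle and 93.9, 101, 74.3 and 93.8 under Sham vehicle. UNX/DOCA vehicle replicates 3 and 4 were the highest of these and replicate 1 lay inside the Sham vehicle range, and without replicates 3 and 4 the medians were 0.11 in the drug and 0.21 in the disease comparison. C1qb averaged 43.1 ± 12 CPM in UNX/DOCA ITF2357, 63.2 ± 29.5 under UNX/DOCA vehicle and 32.3 ± 4.4 under Sham vehicle (SD, n = 4 each).

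A further 10 genes of resident macrophages had a median log2 fold change of 0.33 in UNX/DOCA vehicle against Sham vehicle and -0.61 in UNX/DOCA ITF2357 against UNX/DOCA vehicle. Among them Ccl24, an eosinophil attractant of resident macrophages, lay below Sham vehicle in UNX/DOCA vehicle, against the sign of the set's median, with 0.849, 0.789, 0.557 and 0.621 CPM in UNX/DOCA ITF2357, 1.28, 0.904, 1.54 and 1.26 under UNX/DOCA vehicle and 2.92, 1.79, 2.49 and 2.44 under Sham vehicle. The 3 groups were ordered without overlap, and edgeR called Ccl24 lower in UNX/DOCA ITF2357 than in Sham vehicle (-1.76 ± 0.23 SE, adjusted p = 0.00653). The other comparisons did not pass (adjusted p = 0.106 against UNX/DOCA vehicle, and 0.0998 for UNX/DOCA vehicle against Sham vehicle). Retnla, a secreted protein of alternatively activated macrophages, was also called lower in UNX/DOCA ITF2357 than in Sham vehicle (-1.38 ± 0.29 SE, adjusted p = 0.0386) and averaged 1.27 ± 0.449 CPM in UNX/DOCA ITF2357, 3.15 ± 0.825 under UNX/DOCA vehicle and 3.33 ± 0.866 under Sham vehicle (SD, n = 4 each). Both genes lay wholly below UNX/DOCA vehicle in UNX/DOCA ITF2357, where 4.36% of all genes lay wholly lower. Of 8 tested genes of a further monocyte list all were negative against UNX/DOCA vehicle (median -1.14, 0 called). At an unadjusted p under 0.05 there were 4, where 9.79% of all genes were lower. The list summed to 177 ± 123 CPM in UNX/DOCA ITF2357, 239 ± 155 under UNX/DOCA vehicle and 297 ± 74.8 under Sham vehicle (SD, n = 4 each). This sum was thus on average highest in Sham vehicle, and which cells gave it was not tested. Cd44, a hyaluronan receptor, averaged 5.49 ± 1.56 CPM in UNX/DOCA ITF2357, 12.8 ± 6.16 under UNX/DOCA vehicle and 6.66 ± 1.47 under Sham vehicle (SD, n = 4 each) with no overlap between the UNX/DOCA groups (log2 fold change -1.21 ± 0.31 SE, edgeR adjusted p = 0.0769).

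Myeloid transcription factors other than Spi1 and Maf had a median of 0.65 in UNX/DOCA vehicle against Sham vehicle (8 of 8 positive, 2 at an unadjusted p under 0.05) and -0.30 in UNX/DOCA ITF2357 against UNX/DOCA vehicle (8 of 8 negative, 1 under 0.05), and edgeR called 0 in both. Of 7 genes for the uptake of dying cells 5 had an unadjusted p under 0.05 in UNX/DOCA vehicle against Sham vehicle, all higher and 0 called. Of all genes 9.42% were higher at that level. The 7 summed to 2576 to 3088 CPM in UNX/DOCA ITF2357, 2447 to 2810 under UNX/DOCA vehicle and 2281 to 2928 under Sham vehicle. That was above the sum of the 37 macrophage genes in every library, and which cells gave this signal was not tested. Without UNX/DOCA vehicle replicates 3 and 4, the medians in the drug and disease comparisons were -0.15 and 0.06 for the chemokines, -0.17 and -0.09 for the further resident genes, and -0.13 and -0.22 for the further monocyte genes. They were 0.12 and 0.03 for the transcription factors, -0.02 and 0.13 for the uptake genes and 0.32 and -1.53 for the neutrophil genes. Msr1, the scavenger receptor that takes up modified lipoproteins, averaged 4.67 ± 1.56 CPM in UNX/DOCA ITF2357, 6.76 ± 1.36 under UNX/DOCA vehicle and 3.58 ± 1.02 under Sham vehicle (SD, n = 4 each). Its UNX/DOCA vehicle libraries lay wholly above Sham vehicle, where 5.03% of all genes lay wholly higher (log2 fold change 0.92 ± 0.26 SE, edgeR adjusted p = 0.136).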

How the data were processed

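RNA of 12 mouse left ventricles was sequenced from a directional poly(A) library as read pairs of 150 bp, per the labels' protocols. The authors deposited 1 table of raw counts per Ensembl gene, and FastQC 0.11.9, STAR 2.7.10b and the mm39 build are named in the submitters' processing notes. No source used here names the counting tool, its strand setting or the annotation, and reads of near-identical or antisense genes could be split or shared. Symbols were matched by gene ID and covered at least 99.2% of the counts in each library. Groups were taken from the sample titles, which give ITF2357 for all drug libraries; the treatment field writes a different compound number for each of these 4 libraries and ITF2357 for replicate 1 alone, and the titles were followed. The labels call the samples biological replicates.

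The 12 libraries, with 23.4 to 34.9 M counts, were fitted together in edgeR 4.0.16 (R 4.3.3) with filterByExpr at a minimum count of 10, TMM scaling, robust quasi-likelihood dispersion and a term per group. P-values were adjusted by Benjamini-Hochberg over all 16981 genes tested, at a threshold of 0.05, and the residual degrees of freedom were 9. CPM values are counts scaled by TMM to 1 M reads, computed from the deposited counts. The SE of a log2 fold change is its size divided by the root of the F statistic. DESeq2 1.42.0, limma 3.58.1 voom with sample weights, other scalings and filters, each library left out, and UNX/DOCA vehicle replicates 3 and 4 both left out were alternatives. Replicate numbers were not treated as pairing animals, since the titles give only a number. The genes and the lists were chosen with earlier results of these data known. All members are named; of each further list, up to 2 genes with the smallest unadjusted p in UNX/DOCA vehicle against Sham vehicle and up to 2 in UNX/DOCA ITF2357 against UNX/DOCA vehicle could be named, and Ly6g, Chil4 and other near copies were named after their values were seen. Promoter windows are from RefSeq on GRCm38.p6, a different build from the alignment, and were matched by symbol.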

Additional observations from a re-analysis of the deposited data

Results flagged for a closer look

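Among 120 groups of 4 libraries examined, 8 held a library far from the others by Dixon's test, and chance flags about 1 in 20 groups. In UNX/DOCA ITF2357, Timd4 was 1.64 CPM in replicate 3 against 1.21 to 1.26 in the other libraries. In the same group Cx3cr1 was 1.88 CPM in replicate 1 against 0.95 to 1.00, and Cd86 was 5.83 CPM in replicate 4 against 2.12 to 2.42. In UNX/DOCA vehicle, Chil3 was 17.8 CPM in replicate 3 against 0.0323 to 2.55. In Sham vehicle, Chil3 was 2.40 CPM in replicate 2 against 0.158 to 0.266, and Cd14 was 9.35 CPM in the same replicate against up to 15.4. Mertk was 15.3 CPM in Sham vehicle replicate 3 against 7.28 to 8.48, and Lgals3 was 3.08 CPM in Sham vehicle replicate 4 against 1.65 to 1.86.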

How the results depend on the processing

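Over 1618 values of single genes under the alternatives, 1558 kept their direction and side of the threshold, 49 changed sign and 11 newly passed it. For UNX/DOCA ITF2357 against Sham vehicle these values cover only Maf and Cx3cr1, so they do not describe the other genes there. Of the 49 sign changes, 31 came from leaving out both UNX/DOCA vehicle replicates 3 and 4, and 16 from leaving out 1 library. RLE, upper-quartile and library-total scaling moved the median of all genes by little. For UNX/DOCA ITF2357 against UNX/DOCA vehicle, edgeR called 153 genes, against 352 with no filter, 928 by DESeq2, 239 by limma-voom, 5 with only these groups fitted, 12 without UNX/DOCA vehicle replicates 3 and 4, and 14 to 243 with 1 library left out; of the macrophage genes DESeq2 called 4 and leaving out 1 library 0 to 0. For UNX/DOCA vehicle against Sham vehicle it called 0 genes, with 2699 at an unadjusted p under 0.05, against 7 with upper-quartile scaling, 210 with no filter, 593 by DESeq2, 559 by limma-voom, 1 without replicates 3 and 4, and 0 to 380 with 1 library left out, the most without UNX/DOCA vehicle replicate 1; of the macrophage genes DESeq2 called 3, limma-voom 1 and leaving out 1 library 0 to 2. For UNX/DOCA ITF2357 against Sham vehicle it called 298 genes, against 1180 by DESeq2, 1528 by limma-voom, 475 with only these groups, 481 without replicates 3 and 4, and 17 to 616 with 1 library left out; with only these groups 1 macrophage gene (Maf) was called. With the replicate block these counts were 68, 31 and 192. Deviations of same-numbered libraries from their group means had correlations of -0.19 to 0.25 over 12 pairs (median 0.00). Whether such libraries share a batch is not given and was not tested. The cause was not tested for any of these.

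Without UNX/DOCA vehicle replicates 3 and 4, the medians in UNX/DOCA vehicle against Sham vehicle were 0.095 for resident, -0.19 for recruited and 0.063 for other genes, and in UNX/DOCA ITF2357 against UNX/DOCA vehicle -0.11 for resident, 0.042 for recruited and 0.00 for other genes. The log2 fold changes that then changed sign against Sham vehicle were Cd163 -0.11, Ccr2 -0.18, Ly6c2 -0.20, Chil3 -1.58, Csf1r -0.19, Adgre1 -0.29, Fcgr1 -0.016, Gpnmb -0.022, Lyz2 -0.23, Mpeg1 -0.33, Cybb -0.43, Ptprc -0.30, Cd52 -0.48, Itgam -0.012 and Maf -0.15, and those for UNX/DOCA ITF2357 were Mrc1 0.13, Ccr2 0.26, Ly6c2 0.14, Csf1r 0.34, Adgre1 0.28, Mertk 0.0031, Cd86 0.16, Ms4a7 0.12, Fcgr1 0.66, Fcgr3 0.15, Trem2 0.30, Lgals3 0.13, Mpeg1 0.63, Cybb 0.44, Ptprc 0.083 and Cd52 0.20. By limma-voom Cd163 was -0.032 and Fcgr1 0.052 in UNX/DOCA ITF2357 against UNX/DOCA vehicle. With 1 library left out, the ranges of genes that changed sign were Cd163 -0.091 to 0.41, Csf1r -0.51 to 0.078, Adgre1 -0.63 to 0.044, Mertk -0.22 to 0.043, Fcgr1 -0.32 to 0.28, Mpeg1 -0.36 to 0.12, Maf -0.11 to 0.42 for that comparison and Adgre1 -0.048 to 0.62, Cx3cr1 -0.38 to 0.13 for UNX/DOCA vehicle against Sham vehicle. Low counts limit several genes, among them Aif1, Plac8, Chil3, Ly6c2 and Spp1. In Sham vehicle replicates 1 to 4 Spp1 had 4, 22, 2 and 51 reads, and Ly6c2 had 6 reads in replicate 1.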
